A study of Mus musculus with 2 samples.

Results

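Retained-intron transcripts are annotated RNAs of a gene that keep intron sequence which its other transcripts splice out, and that are listed without a protein product. They were described here in MEL cells, a mouse erythroleukemia line that makes hemoglobin when treated with dimethyl sulfoxide (DMSO). Polyadenylated RNA was sequenced as single-end reads in 2 libraries of cells given 2% DMSO for 5 days. They form 1 group of 2 replicates, both carrying the same cell sample identifier, so whether the cultures were separate is not settled by the labels, and untreated cells were not analysed here. Transcripts were taken where the GENCODE M21 annotation of mm10 gives the type retained intron, where the gene is protein-coding and where the gene held at least 200 estimated reads in both libraries. The rule found 8653 such transcripts of 129984 listed, in 3328 of the 7128 protein-coding genes above that limit. These 3328 genes are called host genes below. They hold 17151 other transcripts, of which 11789 are annotated as protein-coding. The members were chosen by the reads of their genes, so the level of the host genes is a description of the choice. The same values rank the transcripts within each gene, so leading is described without a test, and 1 library against 1 allows none.

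Splicing removes introns between a 5' splice site, which nearly always begins with GT, and a 3' splice site, which nearly always ends with AG. An RNA that keeps an intron is often held in the nucleus until the intron is removed, or is degraded after its reading frame meets an early stop codon. Intron retention has been described for late red cell precursors, where transcripts of the splicing factor SF3B1 and of the mitochondrial iron importer SLC25A37 are known examples. Genes of splicing regulators, among them SR proteins and the CLK kinases that phosphorylate them, are also known to keep introns in many cell types.

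The sequences below show what intron sequence 8 of the most abundant or most telling of these transcripts hold. All were cut from the GENCODE M21 transcript sequences of mm10 and run 5' to 3' on the RNA strand, as DNA letters. Capitals mark the GT at the start or the AG at the end of the intron, and the lower-case letters outside them are the adjoining exon bases. For Gapdh (chr6:125162394-125162477, minus strand), Rps20 (chr4:3835292-3835483, minus strand) and Txnip (chr3:96560095-96560207, plus strand) the intron is whole, lies between coding exons, and is shown with 3 exon bases on each side.
Gapdh: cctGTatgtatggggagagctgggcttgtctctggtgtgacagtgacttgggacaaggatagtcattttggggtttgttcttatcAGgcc
Rps20: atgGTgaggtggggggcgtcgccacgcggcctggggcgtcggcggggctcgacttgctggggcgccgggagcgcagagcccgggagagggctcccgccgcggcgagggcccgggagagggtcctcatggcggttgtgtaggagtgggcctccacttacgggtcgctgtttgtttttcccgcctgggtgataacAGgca
Txnip: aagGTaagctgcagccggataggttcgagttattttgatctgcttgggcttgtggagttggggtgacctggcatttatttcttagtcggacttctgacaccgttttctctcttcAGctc
The transcripts of Hba-a1 (chr11:32283811-32283923, plus strand) and Ank1 (chr8:23140093-23140144, plus strand) start inside an intron. Their first bases run through its AG into 12 bases of the next exon.
Hba-a1: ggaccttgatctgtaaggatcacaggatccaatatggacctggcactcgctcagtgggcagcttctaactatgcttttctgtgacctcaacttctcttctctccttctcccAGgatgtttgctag
Ank1: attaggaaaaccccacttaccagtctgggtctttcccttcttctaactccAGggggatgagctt
The transcripts of Metap2 (chr10:93879461-93879539, minus strand), Btf3 (chr13:98313039-98313091, minus strand) and Cdk1 (chr10:69345005-69345060, minus strand) end inside an intron. They are shown from 12 exon bases before the GT to the last base of the transcript.
Metap2: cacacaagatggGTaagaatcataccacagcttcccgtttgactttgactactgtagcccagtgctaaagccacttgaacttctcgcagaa
Btf3: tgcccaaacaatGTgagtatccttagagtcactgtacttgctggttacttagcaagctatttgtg
Cdk1: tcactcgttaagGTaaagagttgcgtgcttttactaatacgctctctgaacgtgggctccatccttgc
Of these 8, the Gapdh, Rps20 and Txnip transcripts hold an intron with both splice sites, and the other 5 hold a stretch with only 1 of them. A read inside the stretch of the latter cannot show that the whole intron was kept.

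That difference ran through the annotation. A whole intron of another transcript of the gene lay inside 2845 of the 8653 transcripts (32.9%). A further 5683 (65.7%) held only part of an intron: 2633 at their end, 2204 at their start, 846 at both ends. The 2845 transcripts hold 2565 different introns by their longest, with a median length of 299 bases, of which 98.4% start with GT and 99.7% end with AG. Of these introns, 91.5% lie between coding exons. Of the stretches at a transcript's end 96.9% begin with GT, and of those at its start 98.8% finish with AG. Intron sequence made up a median of 39.1% of a transcript, and a median of 32.3% of its bases lay in no other transcript of the gene. Intron sequence was counted as bases in no exon of the gene's transcripts of other types. Bases beyond the outermost of those exons therefore also count, here and in the classes with part of an intron. For 11.5% of the transcripts no base was their own. Of the members named below, this holds for those of Cdc25b, Clk1, Coro1a, Ddx23, Ppox and Urod, and for others marked below. An exon of another gene overlapped 1207 of the 8653 transcripts, on the same strand for 443 and on the opposite strand for 834. Without a statement of strand use, reads of the latter cannot be told apart from those of the other gene. Among members named below, opposite-strand overlap holds for those of Btf3, Carmil2, Cnot3, Exosc8, Gm20662, Hdac7, Lss, Myb, Pdcd2 and Twf1. It also holds for the Prdx2 member that ends inside an intron, and for others marked below.

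Depth was 26149725 estimated reads in replicate 1 and 14149299 in replicate 2. Estimated reads are the deposited expected counts, in which a read that fits several transcripts is divided among them. TPM (transcript abundance) divides these reads by transcript length and scales them to a common total. All 12 erythroid marker genes fixed for the check were at 1 TPM or more in both libraries, with a summed level of 28614 TPM in replicate 1 and 77398 TPM in replicate 2. Of 18 markers of other blood cells and stroma only the platelet lineage genes Itga2b and Pf4 reached 1 TPM in both, 5 were at 0 in both, and the list summed to 92.6 and 174 TPM. In such bulk RNA, fewer cells of a type and less RNA per cell cannot be told apart.

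Retained-intron transcripts came next after protein-coding ones in the RNA of their genes, by TPM and by reads. Their share of host gene TPM was 23.2% in replicate 1 and 23.8% in replicate 2 (mean 23.5% ± 0.437, SD, n = 2). Their share of host gene reads was 12.9% and 13.1% (mean 13.0% ± 0.100, SD, n = 2). The 2 libraries lay within 1 percentage point of each other in both units, while the units lay about 10 points apart. Protein-coding transcripts held 62.6% and 65.1% of TPM, and 78.4% and 79.2% of reads. Transcripts annotated for nonsense-mediated decay, the pathway that degrades RNAs with an early stop codon, held 4.18% and 3.82% of TPM. Of all reads of the libraries, retained-intron transcripts took 4.84% and 5.33%.

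**Figure D1:**
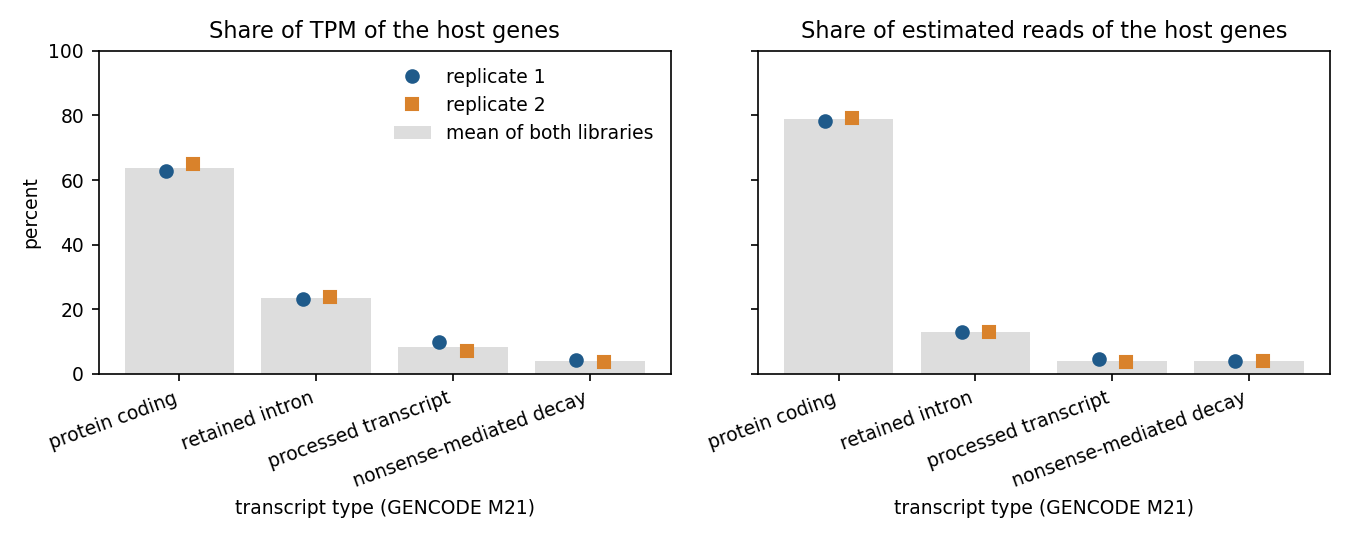
Share of the TPM (left) and of the estimated reads (right) of the 3328 host genes, in percent, held by the 4 main transcript types; points are the libraries and bars their mean. Retained-intron transcripts sit at 23.2% and 23.8% of TPM and at 12.9% and 13.1% of reads.

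The pooled share rested on few genes. The 10 most abundant members held 38.7% of all member TPM in replicate 1 and 51.1% in replicate 2. Hba-a1 and Hbb-bs, the genes of an alpha and a beta chain of adult hemoglobin, alone gave 21.4% and 32.1%. Without these genes the members held 19.5% and 17.8% of host gene TPM, and 11.5% and 10.5% of reads. When each gene counted once, the members of a host gene held a median of 5.89% and 5.86% of its TPM (quartiles 0.844% and 29.9% in replicate 1, 0.612% and 28.0% in replicate 2). By reads the median was 3.66% and 3.55%. Members held over 50% of the reads of 131 genes in both libraries, and under 1% in both for 847 genes. Most members were scarce: 1924 had no reads in either library, 2840 had at least 10 in both, and 765 at least 100 in both.

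A member had the highest TPM of its gene in both libraries for 292 host genes, and the most reads in both for 126. That was 3.37% of the members by TPM, against 8.75% of all 25804 transcripts of the host genes and 14.3% of the protein-coding ones. By reads it was 1.46% of the members, against 9.99% of all transcripts. In single libraries members led 517 and 496 genes by TPM, of which the shared 292 are 56.5% and 58.9%. By reads they led 257 and 217 genes, of which the shared 126 are 49.0% and 58.1%. Of the 292, 176 had a deposited lower TPM bound above the upper bound of every other transcript of the gene in both libraries. The sources used here do not give the level of these bounds, which belong to a posterior estimate that need not enclose the deposited TPM.

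By TPM, the members that led most often began inside an intron. Of the 292 leading by TPM, 141 held part of an intron at their start, 64 at their end and 9 at both ends, and 70 held a whole intron. By reads the order of these counts differed: of the 126, 53 held a whole intron and 44 part of an intron at their start. They come from classes of 2845 and 2204 members, so the counts alone do not rank the classes. The members that start inside an intron are 25.5% of all, but held 48.9% and 54.4% of member TPM. Those with a whole intron are 32.9% of all and held 25.5% and 19.8%. Leading members had a median of 19.5% intron bases, against 39.9% for those leading in neither unit, and 118 of the 292 held under 100 intron bases. A median of 16.7% of their bases lay in no other transcript of the gene, against 33.1%. Most of the sequence of a leading member was thus shared with other transcripts of its gene, and a read from shared sequence is divided among them by the estimate.

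**Figure D2:**
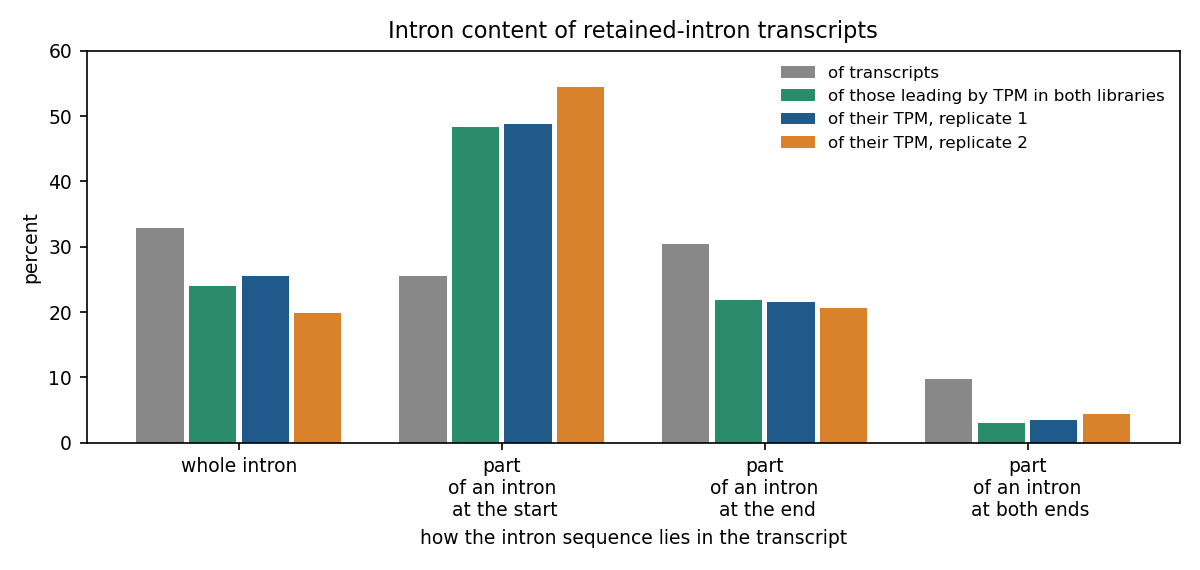
Percent of the 8653 retained-intron transcripts, of the 292 leading by TPM in both libraries, and of all their TPM in each library, by how the intron sequence lies in the transcript; small further classes are not drawn. Transcripts that start inside an intron are 25.5% of all and hold 48.9% and 54.4% of the TPM.

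Globin transcripts came first by level. The Hba-a1 member, 494 bases long, was at 7891 TPM in replicate 1 and 17804 TPM in replicate 2, which was 80.3% and 96.1% of the gene's TPM and 73.6% and 94.4% of its reads. The protein-coding transcript of 699 bases held the rest, 19.7% and 3.88% of TPM. Only the 113 intron bases printed above set the member apart from the other transcripts of the gene, and 90.0% of its windows of 45 bases also occur in a transcript of another gene. The Hbb-bs member was at 6529 and 8691 TPM, 76.4% and 67.1% of the gene's TPM, and 55 of its bases are intron sequence in M21. It is listed with 549 bases in the tables and 344 in M21, so its sequence is not shown. Of the 45-base windows of its M21 sequence 82.3% also occur in a transcript of another gene. Both globin members led in both units and both libraries, with read shares of 69.0% and 58.5% for Hbb-bs.

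Among other abundant genes, Rps20, Gapdh and Ncl gave nearly all their reads to a member. Rps20 encodes a protein of the small ribosomal subunit, and its member was at 2337 and 2330 TPM, 99.0% and 98.9% of gene TPM and 93.9% and 93.8% of gene reads. The values of the libraries differed by under 1 point. Of the 45-base windows of this member 50.6% also occur in a transcript of another gene. The other transcript of Rps20 that ranked next was protein-coding with 3706 bases, against 582 for the member, and was at 22.3 and 22.2 TPM. Gapdh encodes a dehydrogenase of glycolysis, and its member was at 2269 and 2333 TPM, 96.6% and 90.1% of gene TPM. Its 84-base intron is also held by another member, so none of its bases is its own, and 82.5% of the 45-base windows of Gapdh coding transcripts occur in another gene. The Ncl member was at 624 and 222 TPM, 96.2% and 74.5% of gene TPM and 96.1% and 90.0% of gene reads. Ncl encodes nucleolin, a nucleolar protein of ribosome assembly, and this member of 3072 bases and 12 exons holds a whole intron of 492 bases between coding exons.

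Members also led the abundant genes Rbm39, Metap2, Txnip and Btf3 by TPM. Rbm39, a splicing cofactor gene, had a member with a whole intron of 247 bases at 1110 and 498.6 TPM, 72.3% and 60.6% of gene TPM and 49.8% and 46.8% of gene reads. None of the bases of this member is its own. Metap2, which encodes an enzyme that removes the initiator methionine, had a member at 1040 and 437 TPM with a steady share of 75.6% and 75.2%. For Txnip, an inhibitor of thioredoxin, the member was at 1041 and 1329 TPM, 53.4% and 63.5% of gene TPM but 23.0% and 40.2% of gene reads. The Btf3 member, of a gene for a subunit of a ribosome-bound chaperone complex, was at 468 and 1696 TPM, 61.3% and 88.8% of gene TPM. Of the 45-base windows of this member 45.5% also occur in a transcript of another gene. Of the 3324 host genes whose coding transcripts could be cut into windows of 45 bases, 120 (3.61%) had over 50% of them in another gene. Of the genes led in both libraries it was 13 of 289 by TPM (4.50%) and 7 of 123 by reads (5.69%). These counts were added after the values were seen.

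Among the members with the highest read shares were several of genes at lower levels. Oip5, a gene of centromere assembly, had a member with a 237-base intron at 17.7 and 8.43 TPM, 97.5% and 93.4% of gene reads. The Mrps26 member keeps an 80-base intron of this mitochondrial ribosome gene and held 91.5% and 92.2% of reads. Ptger1, a prostaglandin E receptor gene, gave 97.2% and 88.3% of its reads to a member with a 420-base intron. The Triobp member held 92.7% and 87.8%, that of Megf11 98.6% and 99.1%, and that of Ifi27 89.7% and 91.7%. Over these 6 genes and both libraries the lowest share was 87.8%. On the opposite strand, an exon of another gene overlaps the Oip5, Mrps26, Ptger1 and Triobp members. Carmil2 and Pagr1a list no other transcript in the tables, so their members stood at 100%, and in Gm20662 the other transcripts were at 0 in both libraries. Of the 45-base windows of the Pagr1a member 94.9% occur in another gene, and of those of the Gm20662 member 94.0%. Exons of other genes overlap both on the same strand. Reads from such windows are divided among the genes by the estimate.

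**Figure D3:**
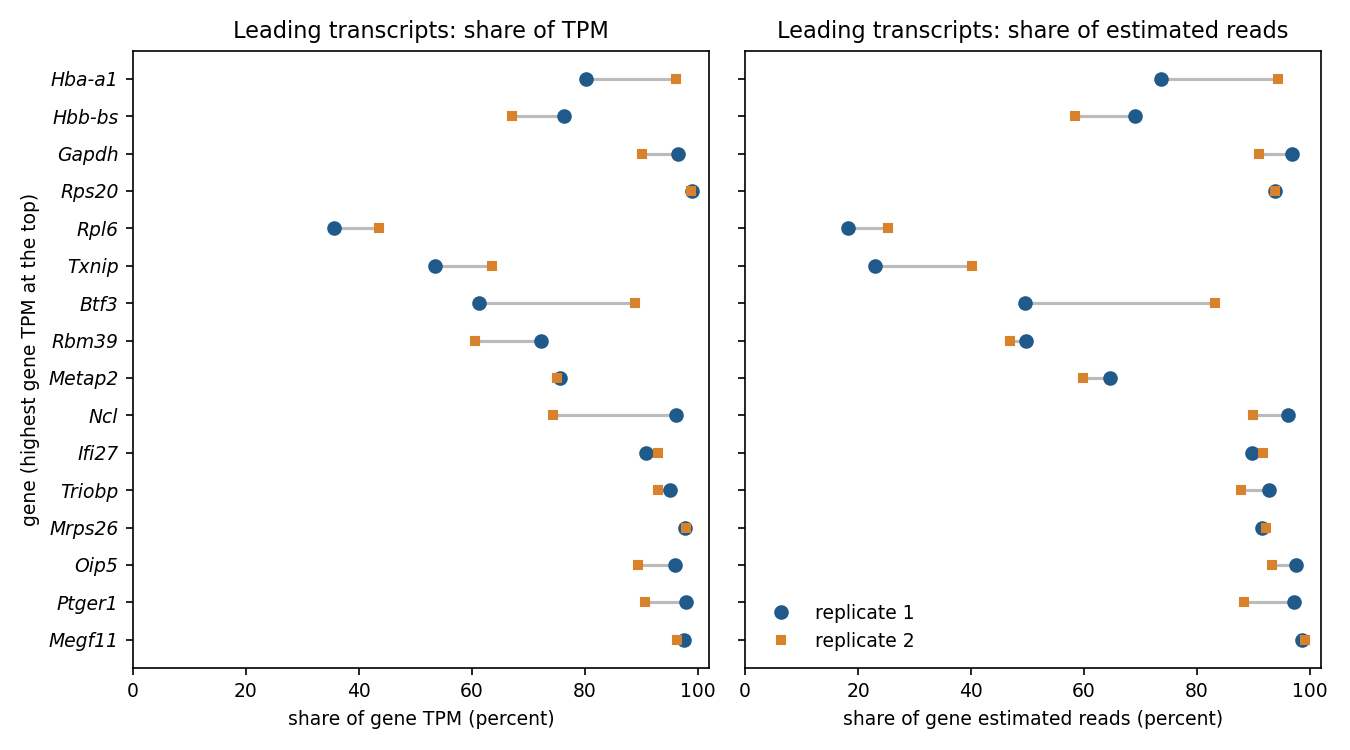
Share of gene TPM (left) and of gene estimated reads (right), in percent, of leading retained-intron transcripts among those with the highest gene TPM or the highest read share; circles are replicate 1 and squares replicate 2. Rps20 lies at 99.0% and 98.9% of TPM, and Btf3 moves from 61.3% to 88.8%.

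Members led 292 of the 3328 host genes by TPM in both libraries (8.77%), and the counts for red cell genes beyond globin stand beside this share. Of 3 heme synthesis genes among the hosts, with 13 members, none was led by a member in both libraries. The Alas2 member, of the enzyme that starts heme synthesis in red cells, was at 118 and 85.6 TPM, 11.1% and 3.19% of gene TPM. A Ppox member with a 927-base intron held 40.2% and 11.6% of reads but 10.3% and 2.09% of TPM. A Urod member held 21.3% and 21.2% of TPM. Among 8 host genes of iron and heme handling only Slc25a37, the mitochondrial iron importer, was led by a member. That member, with 5927 bases and a whole intron of 1756 bases between coding exons, was at 24.9 and 21.5 TPM. This was 53.6% and 59.8% of gene TPM, and 62.2% and 67.9% of gene reads, above the protein-coding transcript of 4174 bases in both units. Its deposited TPM bounds, 22.47 to 25.09 in replicate 1 and 18.31 to 21.05 in replicate 2, lay above those of the protein-coding transcript, 18.92 to 22.36 and 11.58 to 15.01. In all, 1245 of its bases are intron sequence, since part of that intron is exon in other transcripts. Exons of other genes on the opposite strand overlap it. A Tfrc member, of the transferrin receptor gene, took a read share of 51.1% and 8.17%, and led in neither unit in both libraries.

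In the membrane skeleton list, 13 host genes hold 28 members, and members of Ank1 and Add1 led by TPM but not by reads. Ank1 encodes ankyrin, which ties spectrin to the red cell membrane. Its short member of 416 bases was at 156 and 114 TPM, 75.5% and 50.7% of gene TPM, yet at 17.3% and 6.06% of gene reads. An exon of another gene overlaps this member on the opposite strand. A protein-coding Ank1 transcript of 6566 bases held 36.2% and 62.4% of the reads and 9.03% and 29.8% of the TPM. The order of the 2 transcripts turned with the unit in both libraries. Another Ank1 member, with a whole intron of 931 bases, stayed at 0.54 and 0.33 TPM. The Add1 member, of the alpha adducin gene, was at 123 and 179 TPM, 57.5% and 60.6% of TPM and 30.1% and 28.8% of reads. An Epb42 member held 45.7% and 32.5% of TPM and 17.7% of reads in both libraries.

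The list of erythroid transcription factors had 7 members in 6 host genes. None led in both libraries, where 3.37% of all members led by TPM. A Bach1 member, of a heme-sensing repressor gene, held 11.2% and 22.8% of TPM. A Bcl11a member, of a repressor of fetal globin genes, held 1.62% and 1.78%. The Myb member, of a factor that keeps progenitors dividing, was at 0.64 and 7.91 TPM, 2.59% and 57.3% of gene TPM, on 35.1 and 247 reads. The libraries thus disagree for Myb by more than 50 points.

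The list of SR proteins and CLK kinases had the highest median share of gene TPM of the 13 gene lists, but not the highest of reads in replicate 1. In the list of SR proteins and CLK kinases, members held a median of 22.4% and 25.9% of gene TPM over 14 host genes, against 5.89% and 5.86% over all host genes. By reads its medians were 18.4% and 25.3%, beside 29.4% and 24.9% for the 3 heme synthesis genes. Of its 51 members only that of Srsf11 led by TPM in both libraries, at 498 and 201 TPM and 82.9% and 73.3% of gene TPM. It is listed with 813 bases in the tables and 1670 in M21, and none of its M21 bases is its own. An Srsf5 member spans a whole intron of 1229 bases, part of which is exon in other transcripts, so that 853 of its bases are intron sequence and none is its own. It held 41.3% and 69.6% of reads and 27.8% and 56.0% of TPM. A Clk1 member held 36.7% and 22.4% of TPM. The spliceosome core list had medians of 5.91% and 6.40% of TPM, near those of all host genes. Among its 26 host genes with 86 members, Prpf31 was led, with 81.7% and 57.1% of TPM. A member of Ddx23, a helicase gene, held 51.2% and 28.6%. An Sf3b1 member with a 193-base intron held 20.96% and 28.01% of TPM but 3.65% and 6.16% of reads. Of 108 members in 30 host genes for hnRNP and other RNA-binding proteins, that of Rbm39 led. Hnrnpk and Luc7l2 members held 29.5% and 17.8%, and 39.6% and 27.2% of TPM.

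In the ribosomal protein list, with 39 host genes, the median gene gave its members under 1% of its TPM (0.763% and 0.803%). Of its 99 members, 6 led by TPM in both libraries (6.06%), where 3.37% of all members led. The leading members of this list include those of Rpl21, Rpl6, Rps16, Rps2 and Rps20. The Rpl6 member, 284 bases long, was at 516 and 1292 TPM, 35.5% and 43.6% of TPM and 18.3% and 25.4% of reads. Of the 45-base windows of the Rpl6 member 71.7% also occur in a transcript of another gene. The Rack1 member, of a scaffold protein on the small subunit, led by reads with 50.2% and 58.4%, at 1879 and 3991 TPM. None of the bases of this member is its own. Among 25 host genes of translation factors and tRNA synthetases, with 104 members, those of Eif5b and Qars led by TPM (1.92% of these members). The Eif5b member of 5788 bases, of a factor for joining ribosomal subunits, held 95.7% and 78.8% of TPM and 94.6% and 73.4% of reads. Eef1a1, the gene of the elongation factor that brings tRNAs to the ribosome, had an intron-holding member at 965 and 54.3 TPM, 8.85% and 0.792% of TPM. Members of Eef1g and Eif4g2 held 56.5% and 25.7%, and 41.8% and 23.9% of TPM. Of the 45-base windows of the Eef1g member 55.9% occur in another gene, and of those of this Eef1a1 member 48.9%.

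The glycolysis and red cell enzyme list has 18 host genes with 46 members, and its median gene gave them 1.01% and 1.65% of TPM. Besides Gapdh, no gene of this list was led by TPM in both libraries. Prdx2, a peroxide-reducing enzyme abundant in red cells, was led by reads by a member that ends inside an intron, with 41.4% and 40.3% of reads and 44.8% and 36.0% of TPM. Another Prdx2 member, which starts inside an intron, was at 9.32 and 109 TPM, 6.83% and 37.5% of gene TPM. The second of these differed by over 30 points between the libraries and the first by under 10.

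In the chromatin list, with 23 host genes and 77 members, the histone deacetylases Hdac1 and Hdac2 were led by members by TPM in both libraries. That was 2.60% of the list's members, against 3.37% of all members. Hdac2 was also led by reads. The Hdac2 member of 539 bases was at 875 and 254 TPM, 93.9% and 90.6% of TPM and 82.5% and 71.6% of reads. The Hdac1 member with a 263-base intron was at 58.3 and 56.8 TPM, 71.0% and 64.3% of TPM and 60.5% and 46.4% of reads. In replicate 2 it was below the 47.6% of reads of the protein-coding transcript. A member of Hdac7, another deacetylase gene, held 30.4% and 27.6% of TPM, below a transcript annotated for nonsense-mediated decay with 48.9% and 44.5%. The cell cycle list has 24 host genes with 78 members, of which 2.56% led by TPM in both libraries. They are members of Cdk1 and Ccnb1, the kinase and cyclin of mitotic entry, with 73.5% and 59.1%, and 49.1% and 38.4%. Neither led by reads in both libraries. A Cdc25b member, of a phosphatase that activates this kinase, held 34.2% and 42.0% of TPM and 13.6% and 13.7% of reads. In the list for RNA decay, with 16 host genes, 1 of 44 members led by TPM in both libraries (2.27%). This Exosc8 member, of an RNA exosome subunit, held 86.7% and 58.0% of TPM. Members of Smg9, a gene of nonsense-mediated decay, and Cnot3, of the deadenylase complex, led in neither unit in both libraries, with 49.1% and 35.5%, and 3.84% and 15.1% of TPM. These lists were compiled with earlier results of these data known and are described by counts only.

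The distance between the units went with transcript length. Deposited effective length was the length less 44 bases for every member. The ratio of a member's share of gene TPM to its share of gene reads is set by such lengths. Up to rounding, it is the TPM-weighted mean effective length of the gene's transcripts divided by the effective length of the member. A fall with length is thus built into the ratio. For the 17 members under 300 bases with at least 10 reads in both libraries its median was 3.30 in replicate 1 and 3.22 in replicate 2. From 300 to under 500 bases it was 3.10 and 2.90 (n = 243), from 500 to under 1000 bases 2.03 and 2.07 (n = 1107), and from 1000 to under 2000 bases 1.14 and 1.09 (n = 348). At 2000 bases and over it was 0.727 and 0.710 (n = 1125). The median thus passed 1 between the last 2 classes. Other transcripts of the same genes had medians of 2.86 and 2.79 at 300 to under 500 bases and 0.735 and 0.720 at 2000 bases and over. The same step outside this annotation class is part of that arithmetic. The class has a median length of 799 bases against 1991 for protein-coding transcripts of the host genes.

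**Figure D4:**
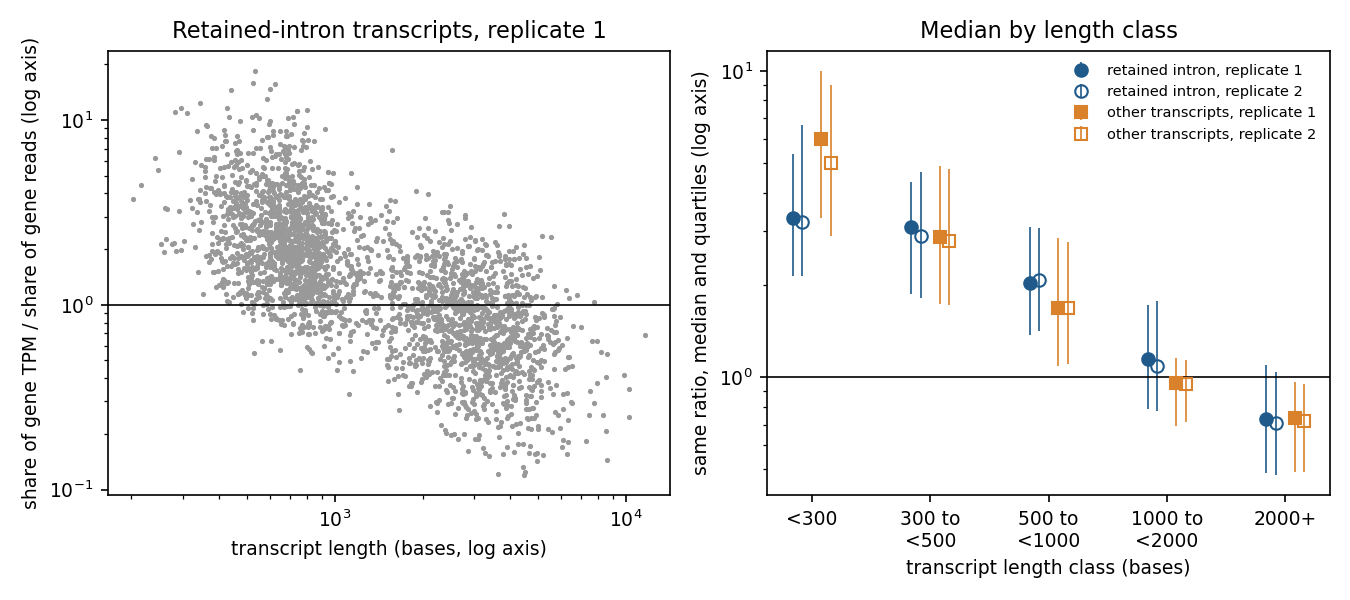
Ratio of the share of gene TPM to the share of gene reads, on log axes, for each retained-intron transcript with at least 10 reads in both libraries against its length in bases (left, replicate 1), and as median and quartiles by length class for these and for the other transcripts of the host genes (right). The medians of retained-intron transcripts go from 3.30 and 3.22 under 300 bases to 0.727 and 0.710 at 2000 bases and over.

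The leading members changed with the unit accordingly. Of the 292 that led by TPM, 99 also led by reads, and the other 193 had a median length of 658 bases. A further 27 led by reads only, with a median length of 3070 bases, and 18 of those held a whole intron. The shortest to lead by TPM was that of Twf1, an actin-binding protein gene, with 216 bases, at 119 and 63.6 TPM. It held 79.0% and 76.6% of TPM on 17.9% and 15.9% of reads, and 19 of its bases are intron sequence. The Zpr1 member of 263 bases held 62.6% and 71.9% of TPM and led by reads too, with 27.5% and 33.6%. The Ccnh member of 297 bases, of a cyclin of the CDK-activating kinase, held 72.2% and 43.5% of TPM on 36.3% and 15.7% of reads. At the other end, the member of Lss, a sterol synthesis gene, has 6992 bases and held 84.2% and 47.2% of reads, but 64.1% and 31.0% of TPM.

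The libraries differed for many single members. Over the 2840 members with at least 10 reads in both, the absolute difference in TPM share had a median of 4.05 points, and the shares correlated with Pearson's r = 0.793 across members, which share genes and libraries. The share was over 10 points higher in replicate 2 for 358 members (12.6%) and over 10 points lower for 451 (15.9%). Over all 9826 transcripts of the host genes with that many reads these were 20.3% and 20.5%. With 1 library each the differences have no test.

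**Figure D5:**
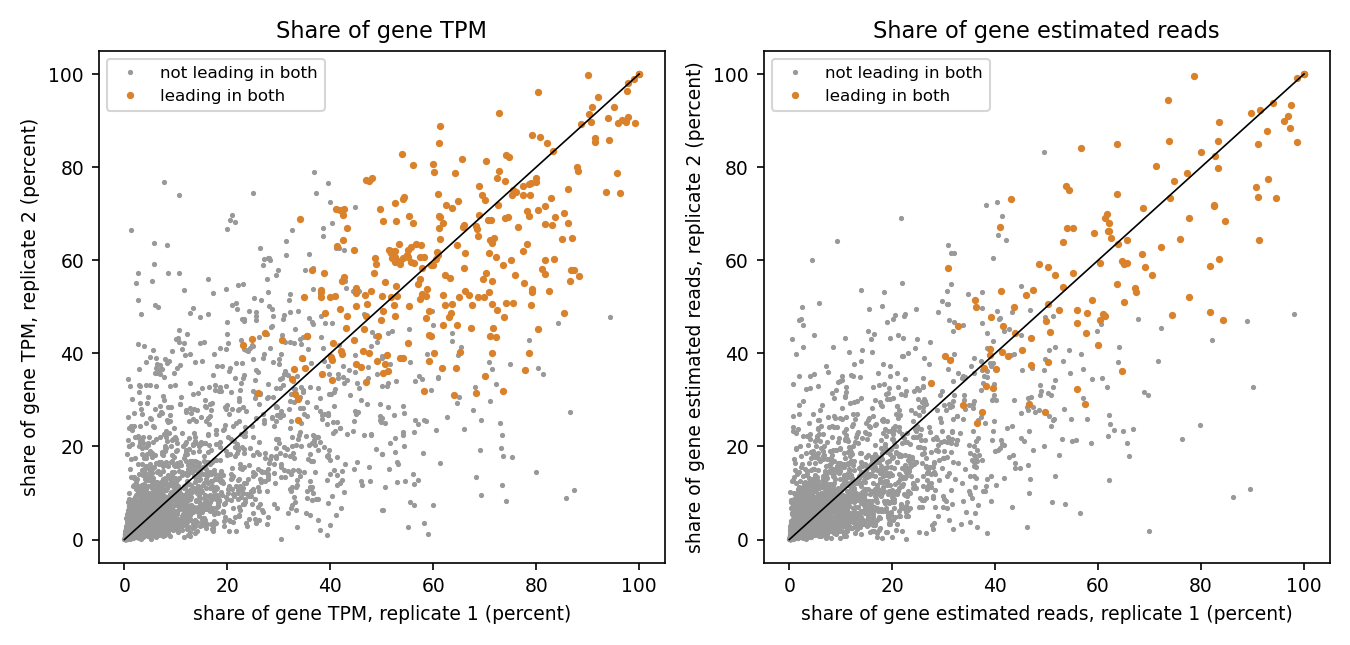
Share of gene TPM (left) and of gene estimated reads (right), in percent, in replicate 1 (x axis) and replicate 2 (y axis) of the 2840 retained-intron transcripts with at least 10 reads in both; orange points lead their gene in both libraries and the line marks equal shares. For 358 transcripts the TPM share is over 10 points higher in replicate 2 and for 451 over 10 points lower.

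Largest among the falls was Arhgap30, where the member went from 85.8% to 8.90% of TPM, on 882 and 42.1 reads. A Pdcd2 member went from 87.4% to 10.7%, while another Pdcd2 member went from 10.6% to 74.0%. The members of Coro1a, an actin regulator gene, Dgkd, a lipid kinase gene, and Cc2d1b went from 74.1% to 8.36%, from 80.0% to 14.6% and from 73.4% to 11.8%. Higher in replicate 2 were members of Dpm1 (7.60% and 76.9%), Rif1 (1.34% and 66.4%), Peli1 (5.69% and 63.7%) and Fip1l1 (8.28% and 63.2%). In these genes the estimated division of reads among transcripts differed between the libraries. The Dpm1 transcript for nonsense-mediated decay, for instance, held 56.8% and 0.304%. For some members that division was uncertain: the deposited posterior SD in replicate 2 was 67.4 reads for Arhgap30 and 22.0 for the falling Pdcd2 member, on 22.9 reads. For others it was small beside the reads, as for Rif1 with 36.2 on 1124. Of the 4644 bases of the Arhgap30 member only 150 are its own. Of the 45-base windows of the Dpm1 member 81.0% also occur in a transcript of another gene. An exon of another gene overlaps the Dpm1 member on the same strand. Its reads are thus also divided with other genes by the estimate. Base composition relative to the gene moved with the differences. For 501 members with a GC content over 5 points below that of their gene's coding transcripts the median difference, replicate 2 minus replicate 1, was -1.17 points. For 128 members over 5 points above it was 3.71 points, and for the 2107 in between -0.12 points. By the GC content of the member itself the medians were -0.29 points under 40%, -0.23 from 40% to 50% and -0.24 from 50% to 60%, and 2.23 points for the 81 members at 60% and over. The level of the members, unlike their share, rose through all these classes in replicate 2 relative to replicate 1. The median log2 ratio of depth-scaled reads, replicate 2 over replicate 1, was -0.93 under 40% and -0.13 from 40% to 50%. It was 0.76 from 50% to 60% and 1.63 at 60% and over. The part of GC content in the differences of share and of level was not tested.

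At the limit of the choice, the host genes just inside were Nceh1, with 565 and 200 reads, and Lypla2, with 200 and 298. Members held 0 of the reads of Nceh1 in both libraries and 31.7% and 2.23% of those of Lypla2. Just outside were Slc9a8, with 199 and 209 reads, and St6galnac4, with 201 and 199, where such transcripts held 23.9% and 5.97%, and 24.4% and 16.8%. Below the limit lay 2850 protein-coding genes with 5408 such transcripts.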

How the data were processed

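PolyA RNA of 2 libraries of DMSO-treated MEL cells, 1 group, was used. The assembly is mm10 and the annotation of the tables GENCODE M4, per the submitters' file list. The sources used here give no program or aligner. The authors deposited, per the file headers, expected counts (estimated reads, unscaled), TPM, FPKM, posterior means and SDs, credibility bounds of TPM (signal values) and, for transcripts, the percent of gene expression. The deposited FPKM and percent were not used. Depth was 26149725 and 14149299 estimated reads. It sets the counting error, to which the division of shared reads adds.

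Transcript types, symbols and coordinates came from GENCODE M21 by transcript ID without version. Of 8653 members 8402 have the same length there and 251 another. Shares are of the sum over a gene's transcripts, including 142 without a match. A member led where its value was above 0 and above that of every other transcript of its gene. Intron sequence was counted as member bases in no exon of the gene's transcripts of other types. Whether such bases lay between exons was checked for whole introns only, which had at least 30 bases. No test was possible, so values per library, means with SD and medians are given. Members, limits and gene lists were chosen with earlier results of these data known. Genes named are those leading by TPM with the highest read shares (12) or gene TPM (10), the 3 most abundant members of each list, the 5 largest differences each way, the 4 shortest and 4 longest leading members, and Ank1. Some of these are not reported here. Other leading genes of the lists were named after their values were seen. Alternatives were the gene limit, posterior means, full length, short transcripts left out, M21 matching, the margin of leading, overlap with other genes, and single libraries. The steps for shares and leading were run on simulated counts that held no reads shared among transcripts. The division of shared reads, the intron content and the overlaps were not tested in this way. Python 3.11.15, pandas 2.3.3, numpy 2.4.6 and matplotlib 3.10.9 were used.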

Additional observations from a re-analysis of the deposited data

How the results depend on the processing

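Of 79 values under alternative settings, 47 stayed within the spread between the libraries (shares, medians and ratios) or within 1.5 times (counts), and 32 did not. The SD of 2 libraries is small, so shifts under 1 point count here. For shares, medians and ratios from a single library the label was fixed in advance. Each of 2 libraries always lies within their SD of their mean, so these values show nothing about stability. With at least 1000 reads per gene the median gene share was 5.17% of TPM and 2.55% of reads, 109 and 44 members led by TPM and reads, the length ratio under 500 bases was 3.50 (main value 3.03), and 326 members differed by over 10 points (main count 809). With at least 50 reads the read share was 13.1% and the medians 6.59% and 4.12%. With posterior means they were 13.1%, 7.66% and 4.04%. With full length the TPM median was 5.76% and the length ratio 2.87. Without transcripts under 500 bases the read share was 12.04% and the medians 5.56% and 3.51%, and the length ratio of that class had no value. With members of equal length in M21 the shares were 21.5% of TPM and 11.98% of reads, and the medians 5.58% and 3.48%. With matched transcripts alone the TPM median was 5.94%. From 1 library the counts of leading members were 496 and 517 by TPM, and 217 and 257 by reads. In each of these the members leading in 1 library need not lead in the other. Settings added after the data were seen gave, without the globin genes, 18.6% of TPM and 11.0% of reads, and, without genes whose coding windows lie mostly in another gene, 20.9% and 11.3%. Counting members with a whole intron only, 70 led by TPM and 53 by reads. No paired analysis was possible because there is 1 group only. Members without reads are limited by depth.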

Other observations

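Transcripts of the same type in non-coding genes above the read limit were not part of the choice. There were 39 in 7 genes, and they held 60.1% and 32.5% of the TPM of these genes in replicates 1 and 2, and 63.2% and 38.2% of the reads. In Gas5, a host of small nucleolar RNAs, a transcript of 539 bases was at 73.9 TPM in replicate 1 and at 0 in replicate 2, while 1 of 403 bases was at 12.4 and 74.8 TPM. In Zfas1, another such host, a transcript of 567 bases held 55.9% and 10.7% of gene TPM. The Trerf1 transcript of 3503 bases held 55.8% and 63.5% of TPM, and that of Ppp4r1l-ps, a pseudogene transcript of 4552 bases, 67.6% and 71.1% of reads.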
